A study of Mus musculus with 401 samples.

Results

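Cumulus cells are the granulosa cells that surround the oocyte in a growing follicle. They are coupled to the oocyte by gap junctions and thin projections, feed it pyruvate, amino acids and cholesterol, and keep it in meiotic arrest until the ovulatory hormone surge. They answer growth factors that the oocyte secretes and the gonadotropins of the pituitary, and they divide while the follicle grows. Calorie restriction (CR) is a sustained cut in food intake without malnutrition, a regimen known to slow the loss of follicles in rodents. The effect of CR on cumulus cells was examined here in 40 of the 401 libraries of the series.

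The 40 libraries were all cumulus libraries of 9-month-old mice in the first of the 2 sets of samples, 25 from CR mice and 15 from mice fed ad libitum (AL), chosen by label alone. A further AL library was left out because the oocyte of its complex held 16.3 CPM (counts scaled to a common library total) of the egg coat gene Zp3, 0.811% of the oocyte median of 2013, while the next lowest oocyte stood at 23.6% of that median. Each library is the pool of cumulus cells stripped from 1 oocyte of a fully grown follicle and was made by RamDA-seq, which copies total RNA along the whole length of transcripts, with or without a poly(A) tail. All mice were B6D2F1 (C57BL/6 x DBA/2) females that had been hyperovulated before collection. The AL libraries came from 4 mice, with 4, 6, 1 and 4 libraries, labelled Middle1 to Middle4 and called AL1 to AL4 here, and the CR libraries from 3 mice, CR1 to CR3, with 3, 9 and 13 libraries. CR was begun in adulthood, reached in steps, and given to mice that were housed individually, so diet and any other difference in how these few mice were kept cannot be told apart. The same holds for any difference in collection, library preparation or sequencing that went with diet. Libraries of 1 mouse are not independent animals. Tests over libraries therefore treat the 40 complexes as the replicates, and the values of mouse means and of counts summed per mouse are given beside them.

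Depth differed with diet. Total counts ranged from 1568223 to 2501005 (median 2019007) in the CR libraries and from 848243 to 1269680 (median 1091806) in the AL libraries, without overlap. A CR library held 18631 to 21910 detected genes (median 21112) and an AL library 18657 to 20647 (median 19722). Values below are CPM scaled by the trimmed mean of M-values (TMM), which sets levels relative to the total of each library. A library is a pool of unknown cell number, so fewer cells and less RNA per cell cannot be told apart in it. Reads carried no molecular identifiers, and errors cover only the spread between libraries.

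The libraries carried the markers of the cell type on their label. The summed level of 21 granulosa and cumulus markers ranged from 14170 to 31350 CPM in AL libraries and from 13130 to 27660 in CR libraries, and every marker was detected. The gap junction gene Gja1 had a log2 fold change of CR over AL of -0.03 ± 0.07 (SE). Of the 21, 1 was called higher in CR and 2 lower, the natriuretic peptide receptor Npr2 and the amino acid transporter Slc38a3, and the count lower was 0 without AL2 or CR2. The transcription factor Foxl2 (0.25 ± 0.15), the follicle-stimulating hormone receptor Fshr (-0.32 ± 0.18) and Amh (0.31 ± 0.65) did not pass the test. Amh ranged from 1.90 to 923 CPM among AL libraries and from 3.74 to 1017 among CR libraries, a spread within each diet far above the difference between them.

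Summed markers of other cells lay below the granulosa and cumulus sum, though luteal markers were high in some libraries. Summed over 13 genes, oocyte markers reached 0.959 to 13.3 CPM (median 4.76) in AL libraries and 0 to 368 CPM (median 4.13) in CR libraries, with 2 CR libraries above the highest AL library, the second of them at 52.6 CPM. Of the 13 genes 1 was at 0 in all 40 libraries. Zp3 had a count in 0 of 15 AL libraries and in 8 of 25 CR libraries. The difference in the oocyte sum, 14.9 CPM higher in CR, did not pass a two-sided permutation test over libraries (p = 0.723) or the exact permutation test over the 7 mouse means (p = 0.629). The sum varied widely in CR, with a mean of 20.7 and an SD of 73.0 CPM. All 10 oocyte markers tested had a log2 fold change above 0 (median 1.62), and 0 were called. In 2 of the 10 every CR mouse mean lay above every AL mouse mean. Equal oocyte RNA in the 2 diets is thus not shown. Theca markers had medians of 117 and 123 CPM in AL and CR, endothelial markers 20.6 and 13.8, immune markers 7.12 and 10.2, smooth muscle and stroma markers 2.60 and 3.41, and surface epithelium markers 0.959 and 0.0919. Red cell markers had medians of 61.9 and 29.9 CPM, and the hemoglobin genes Hba-a1, Hba-a2 and Hbb-bs were called lower in CR, with 0 of the 3 calls left under DESeq2 over libraries or without AL4 or CR3. Theca markers gave 1 call in each direction, Cyp17a1 higher and Tcf21 lower. Luteal markers, the genes of granulosa cells that turn into the corpus luteum, ranged from 55.2 to 1725 CPM (median 101) in AL and from 97.7 to 744 (median 148) in CR, and AL4 had the highest mouse mean, 975 CPM. The part of these other cells in the differences below was not tested, except that a fit with the oocyte marker sum as a covariate called 896 genes.

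Differential expression between the 25 CR and 15 AL libraries was tested with the quasi-likelihood test of edgeR at a false discovery rate (FDR) of 5%. Of 24657 genes tested, 887 were called, or 3.6%, with 509 higher in CR (2.06%) and 378 lower (1.53%). The same test in oocytes of these mice called 30% of 25276 genes. Cumulus genes called higher had a median log2 fold change of 0.62 and those called lower -1.06, and 330 of the 887 moved by more than 1 on the log2 scale, 134 up and 196 down. Over all genes tested the median log2 fold change was 0.035. Of the 10646 tested genes with a mean of at least 8 CPM, 3.91% were called higher and 2.08% lower.

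Support over mice was weaker than support over libraries. Every CR mouse mean lay above every AL mouse mean at 1596 genes (6.47%), and below at 791 genes (3.21%). For tested genes with a mean of at least 8 CPM these shares were 8.64% and 4.15%. Among the called genes 383 of those higher and 195 of those lower were separated by mouse in this way, and 309 were not. With counts summed per mouse, edgeR called 0 genes (0%), with 2047 at an unadjusted p under 0.05, and DESeq2 called 198 (0.803%), of which 170 were among the 887. Without AL2, the AL mouse with the most libraries, 304 genes were called, and 167 genes were called whichever mouse was left out. The split between directions depended on the method. With edgeR 57.4% of the calls were higher in CR under TMM and 44.9% when the scaling alone was changed, to the relative log expression (RLE) factors of DESeq2. The share was 49.6% with DESeq2, which changes both the scaling and the test, 47.8% after CR libraries were thinned to the depth of AL libraries, and 19.4% with voom, which changes the test and the weights and takes mouse as a random effect. On principal component (PC) 1 of the RPKM values, which held 8.18% of the variance, diet accounted for 11.3% of the variance of scores (two-sided permutation test, p = 0.0319), and the exact permutation test over mouse means gave p = 0.0571, the smallest that 4 against 3 mice allow. The RPKM values of AL libraries matched their counts and those of CR libraries mostly did not, a mismatch that follows diet, and on PC1 of TMM log2 CPM made from the counts the share was 7.66% (permutation test, p = 0.0809). On PC2 diet accounted for 1.85% (permutation test over libraries, p = 0.402) with RPKM. It accounted for 31.3% with a pseudocount of 0.1 (p = 0.00018) and 40.4% with TMM log2 CPM (p = 2e-05). Which component carried diet over libraries thus depended on the scale. The exact permutation test over mouse means did not pass at these PC2 settings (p = 0.457 and 0.171). On PC1 of TMM log2 CPM that exact test gave p = 0.171.

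The separation between diets reached every library at the constitutive HSP70 chaperone gene Hspa8, which folds new proteins and uncoats vesicles (chr9:40800984-40810087, GRCm38). It had 724 to 1146 CPM (median 922) in AL libraries and 1299 to 2006 CPM (median 1658) in CR libraries. All 25 CR libraries lay above all 15 AL libraries, and mouse means were 1001, 851, 922 and 977 CPM in AL1 to AL4 against 1606, 1644 and 1623 in CR1 to CR3. The log2 fold change was 0.81 ± 0.07 (edgeR, adjusted p = 5.55e-11). It also passed DESeq2 over mouse sums (adjusted p = 2.34e-09). In oocytes of the same mice its log2 fold change was -0.05 ± 0.07.

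Separation of every library occurred at 6 genes in the direction of CR (0.0243% of those tested) and at 0 genes in the other direction (0%). Besides Hspa8 these were its processed copies Gm15459, Gm6210, Gm8337 and Gm8355 and the noncoding gene Gm26825, which overlaps Gm15459. They are not separate findings. Among 52 called pseudogenes of the processed and unprocessed classes, 9 had Hspa8 as the closest transcript, with identities of 91.5% to 99.7% over the aligned stretch, all 9 were higher by 0.76 to 0.90 on the log2 scale, and 95% to 100% of their nonzero counts were not whole numbers, the mark of reads shared between places. Hspa8 itself had 97.5% such values, so how its reads were divided among the copies is uncertain.

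Some other chaperones rose as well. Hsph1, a nucleotide exchange factor of HSP70 with few shared reads (0% not whole), had 91.1 to 222 CPM (median 183) in AL and 197 to 448 CPM (median 315) in CR, and 24 of 25 CR libraries exceeded the highest AL library. Its log2 fold change was 0.93 ± 0.11 (adjusted p = 1.61e-07) and its AL mouse means of 104 to 186 CPM lay below the CR mouse means of 302 to 355. The stress-inducible pair Hspa1a and Hspa1b, which are near-identical neighbours whose reads cannot be cleanly divided, rose by 2.10 ± 0.35 and 1.74 ± 0.33 from low levels. Hspa1b had 0 to 13.8 CPM (median 3.98) in AL and 6.25 to 59.5 (median 14.4) in CR. The mouse means of Hspa1b did not overlap, and those of Hspa1a did, because the only library of AL3 had 7.54 CPM against a mean of 7.21 in CR1.

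Of 42 HSP70 and HSP90 chaperones and cochaperones, a list drawn up after values had been seen, 12 were called higher and 0 lower, against 2.06% and 1.53% of all genes, and their median log2 fold change was 0.18. With counts summed per mouse DESeq2 called 4 of the 42, and without AL2 the count was 8 higher and 1 lower. The called members included the HSP90 gene Hsp90aa1 (0.32 ± 0.07), the cochaperones Ptges3 (0.40 ± 0.06), Chordc1 (0.50 ± 0.10) and Ahsa1, and the J-domain gene Dnaja1 (0.59 ± 0.13). The change did not extend to each member. Hsp90ab1, the constitutive cytosolic HSP90 gene, had a log2 fold change of -0.01 ± 0.07 and Hspa4 one of 0.09 ± 0.09. Hspa5, the HSP70 protein of the endoplasmic reticulum (ER), was called (0.22 ± 0.06, adjusted p = 0.0465) but lost its call without any 1 of AL1, AL2, CR1 or CR2. The plot of chaperones by fold change shows the inducible HSP70 genes standing apart at the top.

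**Figure D1:**
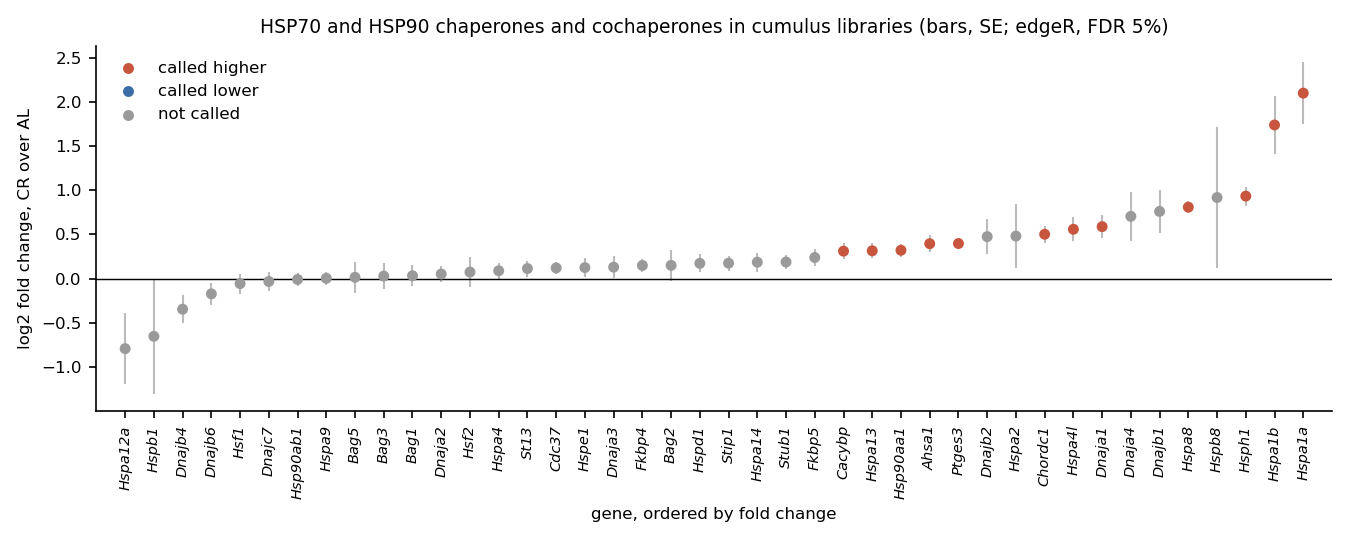
Log2 fold change of CR over AL (y axis) for each of 42 chaperone and cochaperone genes (x axis, ordered by fold change), with bars of 1 SE from edgeR over 40 cumulus libraries. Red points are the 12 genes called higher, and Hspa1a, Hspa1b, Hsph1 and Hspa8 have the highest values among them.

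Heat shock genes are classically switched on by HSF1, which binds inverted repeats of the bases TTC and GAA. In the RefSeq promoter window of 300 bases (250 before the start site and 50 after, GRCm38.p6), a run of TTC, GAA and TTC spaced by 2 bases, on either strand, occurred in 179 of 27025 promoters (0.662%) and in 5 of the 35 chaperone promoters with an entry, those of Chordc1, Dnajb6, Hspd1, Hspe1 and Hsph1. Of all genes with an entry, 0.855% of those called higher and 1.51% of those called lower held the run. Among the 9 chaperone promoters whose gene was called it was in 2, those of Chordc1 and Hsph1. The window of Hsph1 (chr5:149636287-149636586, minus strand) is shown because it is the gene of this group with the clearest rise and a match. The match, in capitals, begins at base 36 counted from the start site.
Hsph1: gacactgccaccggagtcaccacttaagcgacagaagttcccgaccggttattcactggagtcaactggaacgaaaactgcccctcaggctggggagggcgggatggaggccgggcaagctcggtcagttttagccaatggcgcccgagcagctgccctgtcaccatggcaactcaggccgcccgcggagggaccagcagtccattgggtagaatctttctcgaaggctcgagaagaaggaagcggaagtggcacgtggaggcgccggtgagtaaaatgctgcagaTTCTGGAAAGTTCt
A match is a description of the letters and not a measure of binding.

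Part of the secretory pathway was called higher. Secreted and membrane proteins enter the ER through the SEC61 channel, are folded there by protein disulfide isomerases and the lectins calnexin and calreticulin, and leave in coated vesicles. P4hb, a disulfide isomerase, had 375 to 563 CPM (median 429) in AL and 498 to 865 CPM (median 669) in CR, and 22 of 25 CR libraries exceeded every AL library. Its mouse means were 413 to 464 CPM in AL and 630.2 to 717 in CR, and its log2 fold change was 0.59 ± 0.07 (adjusted p = 4e-08). It passed DESeq2 over mouse sums as well (adjusted p = 3.63e-05).

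Of 69 secretory pathway genes, again listed after values had been seen, 19 were called higher and 0 lower (27.5% and 0%, against 2.06% and 1.53% of all genes), 50 did not pass, 59 had a log2 fold change above 0, and the median was 0.18. In 23 of the 69 (33.3%) every CR mouse mean lay above every AL mouse mean. The share was 6.47% of all genes and 8.64% of those with a mean of at least 8 CPM. The members included the channel subunit Sec61a1 (0.33 ± 0.06), the receptor Kdelr2 (0.41 ± 0.07), which returns escaped ER proteins, its relative Kdelr3 (0.98 ± 0.22), Pdia3 (0.48 ± 0.11), calreticulin Calr (0.44 ± 0.10) and calnexin Canx. The number of calls in the list was 11 without AL2, 12 without AL1 or CR2 and 3 with DESeq2 over mouse sums. Of 27 genes of the integrated, ER and heat shock stress responses, 8 were called higher and 2 lower (29.6% and 7.41%, against 2.06% and 1.53% of all genes). This list overlaps those above, since Hspa8, Hsph1, Hspa1a, Hspa1b and Hsp90aa1 are also chaperone list members and Calr is a secretory one, which leaves Hspa5 and Psat1 as the called rises counted here alone. The fallen members were the ER stress sensor Ern1 (-0.32 ± 0.09) and the ATF4 target Chac1, which was counted mainly in AL1 and lost its call without AL1 or CR3.

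Part of the DNA replication genes was called higher, by moderate amounts. Before each round of synthesis ORC, CDC6 and CDT1 load the MCM helicase onto origins, and CDC45 and the polymerases then open and copy the DNA with RPA, PCNA and FEN1. Of 49 replication genes tested 15 were called higher and 0 lower (30.6% and 0%, against 2.06% and 1.53% of all genes), 44 had a log2 fold change above 0, and the median was 0.27, or 0.23 with RLE factors. In 23 of the 49 (46.9%) every CR mouse mean lay above every AL mouse mean. The share was 6.47% of all genes and 8.64% of those with a mean of at least 8 CPM. The counts were 14 with DESeq2, with 1 lower, 9 without AL2 and 3 with DESeq2 over mouse sums.

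The helicase subunit Mcm4 had 101 to 175 CPM (median 144) in AL and 132 to 270 CPM (median 203) in CR, and 19 of 25 CR libraries exceeded every AL library. Mouse means were 119, 144, 157 and 158 CPM in AL1 to AL4 and 225, 210.1 and 187 in CR1 to CR3, a log2 fold change of 0.49 ± 0.08 (adjusted p = 0.000232). The subunits Mcm5 (0.44 ± 0.08), Mcm2 (0.39 ± 0.09) and Mcm6 (0.30 ± 0.07) were also called, and so was the separate replication factor Mcm10 (0.61 ± 0.12). The other MCM helicase subunits, Mcm3 and Mcm7, had 0.13 ± 0.10 and 0.20 ± 0.08 and did not pass, so the subunits of the complex were not all called.

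The licensing factors Cdt1 (0.55 ± 0.12) and Cdc6 (0.44 ± 0.12) and the helicase activator Cdc45 were called. At the fork Fen1, which trims Okazaki fragments, had the next lowest adjusted p after Mcm4, 0.000456, with 16.7 to 38.1 CPM (median 27.8) in AL and 27.5 to 56.3 CPM (median 41.2) in CR. The single-strand binding genes Rpa1 (0.45 ± 0.09) and Rpa2, the polymerase subunit Pold2, the clamp loader Rfc2, the nucleotide-supplying Rrm2 (0.55 ± 0.12) and Uhrf1, which maintains DNA methylation behind the fork (0.46 ± 0.09), completed the called genes. Pcna, the sliding clamp, had 0.20 ± 0.08 and did not pass.

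**Figure D2:**
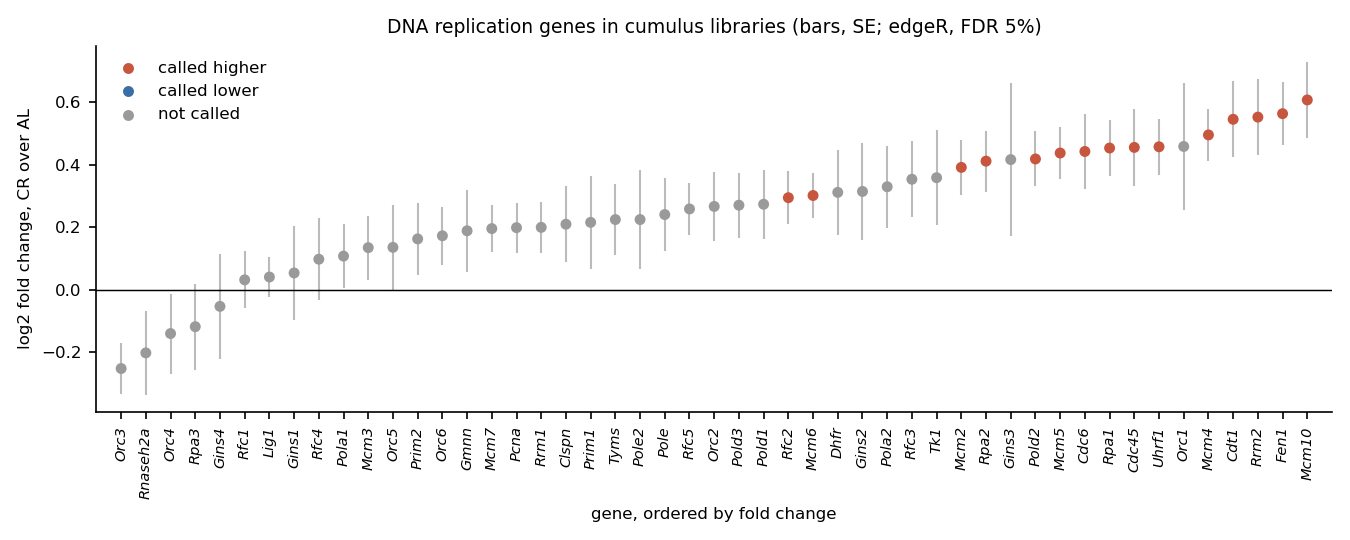
Log2 fold change of CR over AL (y axis) for each of 49 DNA replication genes (x axis, ordered by fold change), with bars of 1 SE from edgeR over 40 cumulus libraries. The 15 red points are the genes called higher, none of the others passed, and 44 of the 49 points lie above 0.

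The E2F factors drive many of these genes in G1. Searched as TTTCCCGC, TTTCGCGC, TTTGCCGC or TTTGGCGC on either strand, the E2F motif was in 704 of 27025 RefSeq promoters (2.6%) and in 17 of the 40 replication promoters with an entry (42.5%). It was in 5 of the 13 of these whose gene was called, Cdc6, Cdt1, Mcm5, Mcm6 and Uhrf1, 38.5% against 42.5% of the whole list. The 3 windows below show how the motif sits in called genes, with overlapping matches on the opposite strands merged into a run of capitals in Mcm5 (chr8:75109259-75109558, plus strand, first bases -153 and -149 from the start site) and Mcm6 (chr1:128359656-128359955, minus strand, -110, -106 and -47), and 1 match in Uhrf1 (chr17:56304063-56304362, plus strand, -185).
Mcm5: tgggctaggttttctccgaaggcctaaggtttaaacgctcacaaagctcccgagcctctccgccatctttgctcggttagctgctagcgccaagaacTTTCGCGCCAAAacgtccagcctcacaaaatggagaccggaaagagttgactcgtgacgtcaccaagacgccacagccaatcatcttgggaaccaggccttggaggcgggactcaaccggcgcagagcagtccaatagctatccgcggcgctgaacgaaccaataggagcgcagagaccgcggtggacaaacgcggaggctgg
Mcm6: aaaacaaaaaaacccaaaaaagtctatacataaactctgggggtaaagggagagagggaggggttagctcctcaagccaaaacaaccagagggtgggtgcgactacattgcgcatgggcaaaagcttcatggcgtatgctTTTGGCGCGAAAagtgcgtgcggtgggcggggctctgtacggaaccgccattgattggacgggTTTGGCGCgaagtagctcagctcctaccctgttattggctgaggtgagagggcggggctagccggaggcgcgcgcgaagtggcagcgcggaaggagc
Uhrf1: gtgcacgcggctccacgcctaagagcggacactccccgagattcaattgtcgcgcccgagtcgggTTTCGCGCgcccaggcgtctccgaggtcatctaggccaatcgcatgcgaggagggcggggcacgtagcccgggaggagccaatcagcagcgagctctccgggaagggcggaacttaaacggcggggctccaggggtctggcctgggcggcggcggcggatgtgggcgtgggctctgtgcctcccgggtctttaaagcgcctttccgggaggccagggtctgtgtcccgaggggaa
These windows were not assayed for binding.

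Regulators of G1 were also called, and mitotic genes were called at about the share of all genes. Of 26 genes of G1 control and the p53 response, 7 were called higher and 0 lower (26.9% and 0%, against 2.06% and 1.53% of all genes), among them E2f1 (0.57 ± 0.12), Ccne1, the cyclin that fires S phase (0.86 ± 0.19), the granulosa D cyclin Ccnd2 (0.35 ± 0.09) and Cdk6. The growth-restraining genes Btg2, Ccng1 and Gadd45g were in the same 7, and these act against division. The list gave 4 calls higher and 1 lower with RLE factors, 4 higher and 1 lower without AL1, 3 higher without AL2 and 0 with DESeq2 over mouse sums. Of 36 mitosis genes 1 was called higher (2.78%, against 2.06% of all genes), Anln (0.29 in log2). The list had a median of 0.05, close to that of all genes. Of 61 core histone genes 2 were called higher (3.28%), Hist2h2bb and Hist2h3c2, with a median of 0.23. Counts this near the share of all genes are no result about the mitosis or histone list.

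Among single genes, the largest rise under the rule for named genes was that of Nell1, a secreted glycoprotein best known from bone. It had 0 to 9.85 CPM (median 0) in AL and 0.521 to 73.1 CPM (median 10.5) in CR, and 13 of 25 CR libraries lay above every AL library. Mouse means were 0, 1.18, 0 and 2.95 CPM in AL1 to AL4 and 16.8, 21.9 and 11.9 in CR1 to CR3. The fitted log2 fold change was 3.55 ± 0.67 (adjusted p = 0.000971), but it rests on AL libraries at or near 0 and its size depends on the prior count.

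Scara5, a scavenger receptor that takes up ferritin (chr14:65666403-65764826), had the lowest adjusted p among the 12 largest rises. It ranged from 5.76 to 37.9 CPM (median 14.8) in AL and from 30.7 to 255 CPM (median 112) in CR, and 22 of 25 CR libraries exceeded every AL library. Its log2 fold change was 2.86 ± 0.30 (adjusted p = 1.2e-08), and mouse means were 10.1 to 22 CPM in AL and 74.0 to 182 in CR. It was also called higher in CR oocytes (2.23 ± 0.64, adjusted p = 0.00557).

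Of 30 genes of cholesterol synthesis and uptake, 4 were called higher and 1 lower (13.3% and 3.33%, against 2.06% and 1.53% of all genes). Insig1, the sterol-regulated brake on SREBP (0.58 ± 0.14), Acat2 (0.72 ± 0.18) and Dhcr7 (0.72 ± 0.19) were among the rises, and Soat1, which esterifies cholesterol for storage, was lower (-0.37 ± 0.11). The list had a median of 0.44 with 29 of 30 values above 0, yet 25 of the 30 did not pass, among them Hmgcs1 (0.52 ± 0.19) and Sqle (0.31 ± 0.15), which act early in the pathway, and in 5 of 30 (16.7%, against 6.47% of all genes) the CR mouse means all lay above the AL mouse means. The count of calls higher ran from 1 without AL2 to 21 without CR3.

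The paternally expressed imprinted genes Peg3 and Ndn rose. Peg3, a zinc finger regulator, had 17.1 to 59.2 CPM (median 39.3) in AL and 52.3 to 186 CPM (median 86.4) in CR, a log2 fold change of 1.29 ± 0.18 (adjusted p = 8.86e-06). Ndn, a MAGE family growth suppressor, had 0 to 9.10 CPM (median 3.02) in AL and 5.95 to 34.7 CPM (median 12.5) in CR, a log2 fold change of 2.01 ± 0.30 (adjusted p = 2.54e-05). In both genes 22 of 25 CR libraries exceeded every AL library and mouse means did not overlap.

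Further large rises under the rule were those of the fibronectin receptor subunit Itga5 (2.00 ± 0.40), the protease inhibitor Fetub (1.91 ± 0.27), the G protein regulator Rgs10 (1.71 ± 0.25), the deacetylase Hdac7 (1.66 ± 0.27), the Rac exchange factor Prex1 (1.66 ± 0.28), the zinc finger gene Zbtb8b (1.58 ± 0.27) and 2810039B14Rik, which GENCODE annotates as a transcribed unitary pseudogene (1.56 ± 0.34). Fetub, known for protecting the egg coat from early hardening, had 0.874 to 10.3 CPM (median 4.65) in AL and 5.27 to 55.5 CPM (median 21.7) in CR, and in oocytes it was lower in CR (-0.69 ± 0.08). Of the 24 genes that the rule names in both directions, 14 were called whichever mouse was left out, 9 lost their call without AL2, and 23 were called by DESeq2 over mouse sums, the other being Lrrtm3. The rule itself asks for a call and for mouse means that do not overlap, so these counts are no separate support. Of all 887 called genes, 167 were called whichever mouse was left out and 170 by DESeq2 over mouse sums.

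Lrrtm3, a synaptic adhesion gene, fell the most under the rule. It had 21.4 to 109.9 CPM (median 51.4) in AL and 0 to 48.6 CPM (median 2.76) in CR, and 23 of 25 CR libraries lay below every AL library. Mouse means were 59.7, 59.3, 58.5 and 42.3 CPM in AL1 to AL4 against 1.43, 0.504 and 14.1 in CR1 to CR3, and the log2 fold change was -2.84 ± 0.43 (adjusted p = 3.89e-05). CR3 stood above the other CR mice, and the size of the fall depended on it, with -6.01 without CR3. DESeq2 over mouse sums gave this gene no p-value, and edgeR over mouse sums did not call it.

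Gpx3, the extracellular glutathione peroxidase, had 17.6 to 100 CPM (median 28.8) in AL and 2.46 to 27.4 CPM (median 9.66) in CR, with 23 of 25 CR libraries below every AL library. Its log2 fold change was -1.79 ± 0.25 (adjusted p = 7.35e-06). The intracellular antioxidant genes that passed moved the other way, the glutathione transferase Gsta4 (1.36 ± 0.24), the peroxiredoxin Prdx1 (0.46 ± 0.08), the glutathione reductase Gsr (0.53 ± 0.12) and the superoxide dismutase Sod1 (0.26 ± 0.08). In the list of 32 antioxidant genes 4 were thus called higher and 1 lower (12.5% and 3.12%, against 2.06% and 1.53% of all genes).

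Cd36, a fatty acid translocase, had 25.2 to 118 CPM (median 70.8) in AL and 6.29 to 92.2 CPM (median 37.2) in CR, a log2 fold change of -1.19 ± 0.25 (adjusted p = 0.00325). Of the 32 genes of fatty acid oxidation and PPAR targets, Cd36 was the called fall and the carnitine carrier Slc25a20 (0.79 ± 0.19) the called rise. Each is 3.12% of the list, against 1.53% of all genes called lower and 2.06% called higher. The smooth muscle and cardiac coactivator Myocd had 59.1 to 151 CPM in AL and 0 to 152 CPM in CR, where it stayed high in part of CR3, and its log2 fold change was -1.38 ± 0.36 (adjusted p = 0.0199), or -2.52 without CR3. The remaining falls under the rule were 2610307P16Rik (-2.12 ± 0.32), the potassium channel gene Kcnj5 (-1.78 ± 0.41), the receptor phosphatase Ptprt (-1.68 ± 0.43), the thymic regulator Aire (-1.60 ± 0.46), the matrix gene Adamtsl2 (-1.60 ± 0.36), the zinc finger factor Ikzf2 (-1.57 ± 0.35), Gm44445 (-1.43 ± 0.34) and the imprinted pair Rtl1 and Mirg described next.

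**Figure D3:**
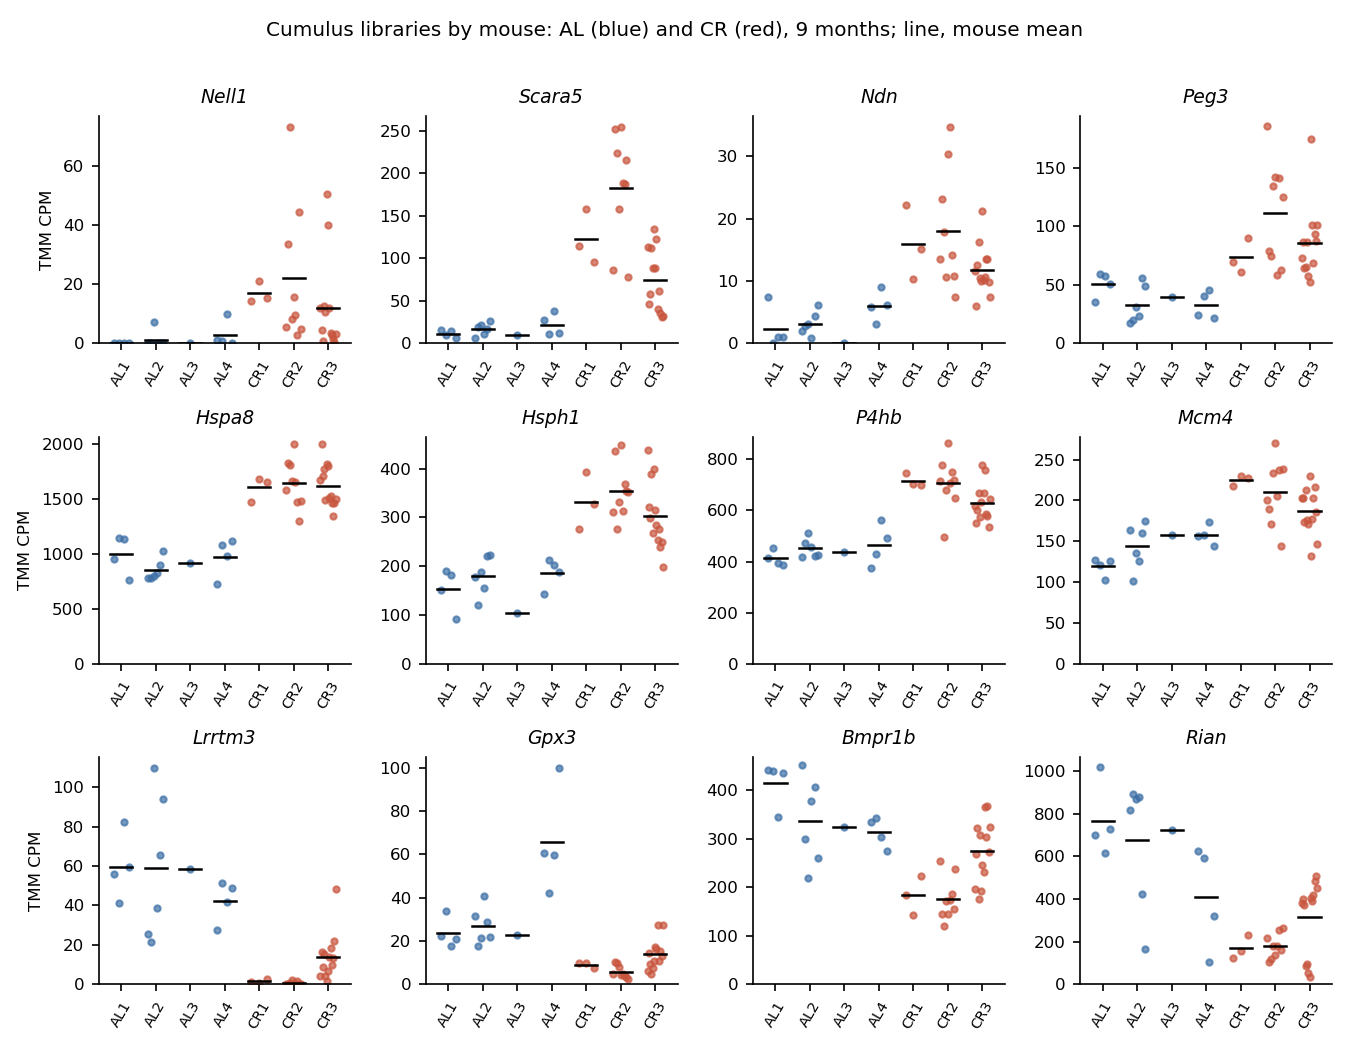
TMM CPM (y axes) of 12 genes in each cumulus library, with AL mice in blue and CR mice in red along the x axis and a line at each mouse mean. All 25 CR libraries of Hspa8 lie above the AL libraries, the 3 CR mouse means of Scara5 lie between 74.0 and 182 CPM against 10.1 to 22 in AL, and Lrrtm3 is lower in CR1 and CR2 than in CR3.

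Noncoding RNAs of the imprinted Dlk1 to Mirg region were among the falls. On chromosome 12 this region (chr12:109452823-109749460) carries the paternally expressed coding genes Dlk1 and Rtl1 and, from the maternal copy, a chain of long RNAs, Meg3, Rian and Mirg, that hosts snoRNAs and many microRNAs. The region was singled out after its values were seen. Of its 103 genes in the file 78 were tested, of which 18 were called lower and 0 higher (against 1.53% and 2.06% of all genes), 74 had a log2 fold change below 0, and the median was -1.07. Of the 18 calls, 5 were kept without AL2, 6 without AL1 and 7 without CR2. Since the host RNAs, hairpins and small genes overlap and share reads, these are not independent members.

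Rian, a spliced RNA that hosts snoRNAs, had 103 to 1016 CPM (median 701) in AL and 31.8 to 506 CPM (median 218) in CR. Mouse means were 766, 675, 723 and 411 CPM in AL1 to AL4 against 169, 179.7 and 313 in CR1 to CR3, and the log2 fold change was -1.35 ± 0.27 (edgeR, adjusted p = 0.00168). Libraries of both diets spread widely, and only 4 CR libraries lay below the lowest AL library. Meg3 (-1.10 ± 0.27, adjusted p = 0.014), Mirg (-1.42 ± 0.28, adjusted p = 0.0015) and Rtl1 (-1.42 ± 0.33, adjusted p = 0.00718) moved alike, and Meg3 lost its call without AL2 or CR2. MicroRNA hairpins lie within the interval of Rtl1, and whether its reads come from the coding gene alone was not tested.

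All 8 genes of the region with an AL mean of at least 8 CPM were called lower, by -1.42 to -1.10 in log2 fold change, and of these calls 2 were kept without CR2, 3 without AL2 and 4 without AL1. Their summed level was 155 to 1843 CPM (median 1178) in AL and 59.3 to 933 CPM (median 411) in CR, with mouse means of 1321, 1233, 1612 and 724.7 CPM in AL1 to AL4 and 300.7, 375.5 and 575.7 in CR1 to CR3. Mouse means thus did not overlap, though only 2 CR libraries lay below the lowest AL library. The 8 genes were picked by their mean in AL, the group where they were high, so their count and their sum lean toward falls. Of all tested genes with a mean of at least 8 CPM, 2.08% were called lower. The neighbouring genes Wars, Yy1 and Ppp2r5c outside the region had log2 fold changes of 0.25 ± 0.13, -0.03 ± 0.09 and 0.00 ± 0.07 and did not pass. Dlk1 was nearly absent, with means of 0.805 CPM in AL and 0.189 in CR.

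**Figure D4:**
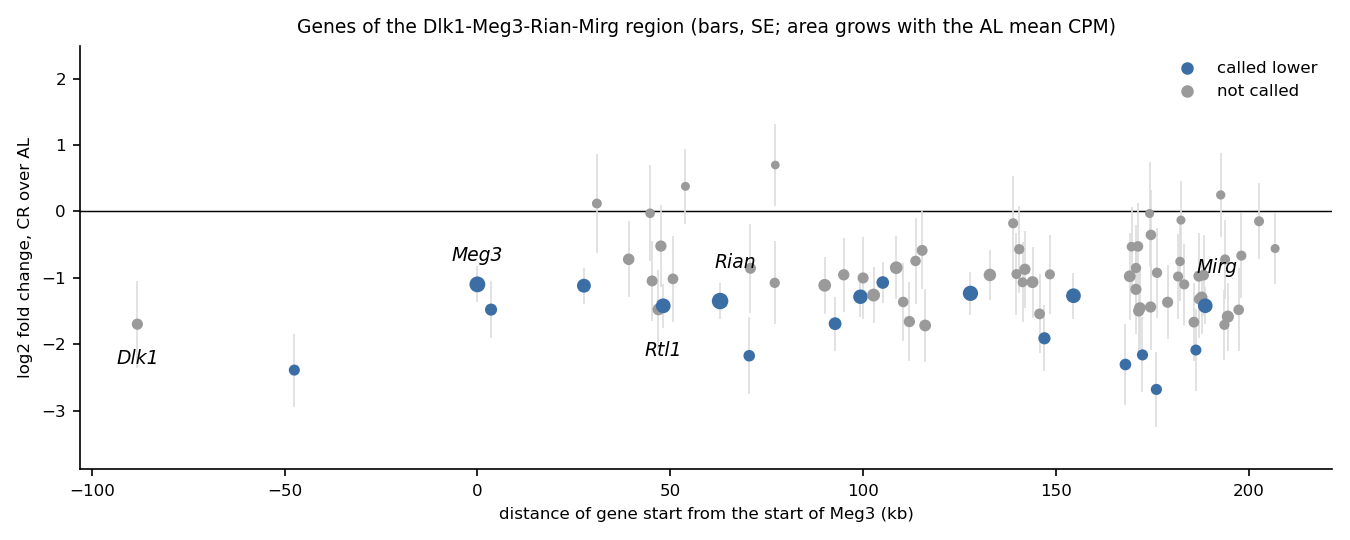
Log2 fold change of CR over AL (y axis, bars of 1 SE from edgeR) for each of 78 tested genes of the Dlk1 to Mirg region against the distance of the gene start from the start of Meg3 in kb (x axis), with points sized by the AL mean. The 18 blue points are called lower, none is called higher, and 74 points lie below 0.

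MicroRNA hairpins lie in the same chain. Of the 46 tested hairpin intervals 6 were called lower, and of 22 snoRNA genes 3, against 1.53% of all genes. Reads over a hairpin in total RNA come from the host RNA or the hairpin and do not measure the mature microRNA, and the called hairpins averaged at most 2.06 CPM in AL, near or under the level of 3 counts in an AL library (2.27 to 3.44 CPM), so no fold is given for them. RefSeq mature sequences of 4 of the called hairpins are shown, because they are the products this host chain encodes, with the seed (bases 2 to 8) in capitals.
mmu-miR-341-3p: uCGGUCGAucggucggucggu
mmu-miR-379-5p: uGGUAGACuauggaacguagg
mmu-miR-329-3p: aACACACCcagcuaaccuuuuu
mmu-miR-666-5p: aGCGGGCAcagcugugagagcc
The 4 seeds differ from each other.

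The 38 imprinted genes tested in all were listed after values had been seen. Of these, 2 were called higher, Peg3 and Ndn, and 5 lower, Meg3, Rian, Mirg, Rtl1 and Nnat. The shares were 5.26% and 13.2%, against 2.06% and 1.53% of all genes, and the median was -0.12. The count lower was 3 without AL2 and 2 without CR2. Some chromatin regulators fell. Of 66 histone and DNA modifiers and remodellers, listed in the same way, 13 were called lower and 1 higher (19.7% and 1.52%, against 1.53% and 2.06% of all genes), with a median of -0.11. The count lower was 6 without AL1, 8 without CR2 and 4 with DESeq2 over mouse sums. The demethylase-like Jmjd1c had 206 to 475 CPM (median 365) in AL and 164 to 297 CPM (median 218) in CR, a log2 fold change of -0.60 ± 0.10 (adjusted p = 0.000117). The DNA demethylases Tet2 (-0.62 ± 0.12) and Tet1, the glycosyltransferase Ogt (-0.47 ± 0.08), Asxl1, Setd5 and Kmt2c fell too, and the remodeller Chd3 rose (0.56 ± 0.11). Called genes were longer than the background in both directions. The median gene length, as implied by the counts and RPKM of ad libitum libraries, was 4.25 kb for those lower and 3.53 kb for those higher. It was 2.59 kb for all tested genes. A fit that removed length and GC trends called 9 of the 66 lower.

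Signalling from the oocyte and the gonadotropins changed at few genes. Of 32 genes of TGF-beta, activin, BMP and AMH signalling, 2 were called higher and 2 lower (6.25% each, against 2.06% and 1.53% of all genes). The targets Id1 (1.58 ± 0.26) and Id3 (0.63 ± 0.17) were called higher. The BMP receptor Bmpr1b, through which oocyte ligands act, and Smad4 were called lower, with 0 calls lower without CR2. Bmpr1b had 218 to 451 CPM (median 342) in AL and 120.3 to 368 CPM (median 223) in CR, a log2 fold change of -0.62 ± 0.13 (adjusted p = 0.00227), with mouse means of 314 to 415 CPM against 176 to 275. Mouse means of Id1 overlapped, since the only AL3 library had 52.1 CPM and CR1 a mean of 28.9. Npr2, whose cyclic GMP holds the oocyte in arrest, was the only called member of 16 gap junction and cyclic nucleotide genes (-0.41 ± 0.10, adjusted p = 0.0104), with 427 to 738 CPM (median 588) in AL and 232 to 584 CPM (median 441) in CR. Its mouse means overlapped, and the call was lost without AL1, AL2 or CR2. None of 16 tested genes of cumulus expansion and its EGF-like ligands was called by edgeR or DESeq2.

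Luteinizing hormone receptor Lhcgr and other luteal genes were called lower, and these calls rested on single mice. Lhcgr had 0 to 163 CPM (median 3.46) in AL and 0 to 32.5 CPM (median 5.37) in CR, with AL mouse means of 0.464, 3.06, 16.5 and 94.9 CPM. Its log2 fold change of -2.02 ± 0.56 turned to 1.02 without AL4. Of 10 luteal genes 5 were called lower and 1 higher, Parm1 (50% and 10%, against 1.53% and 2.06% of all genes), and the count lower was 0 without AL4 and 0 without CR3. Of 13 steroid synthesis genes the electron donor Fdxr (-0.78 ± 0.16) and Akr1c18 were called lower and Cyp17a1, a theca enzyme, higher, and 19 hormone receptors had 1 call in each direction, with Lhcgr called lower.

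Some immediate early genes, which respond within minutes to handling and hormones alike, were called higher over libraries. Of 31 tested 8 were called higher and 0 lower (25.8% and 0%, against 2.06% and 1.53% of all genes), 23 did not pass, and the median was 0.78. Dusp1 had 2.88 to 76.8 CPM (median 22.2) in AL and 17.7 to 320.0 CPM (median 66.1) in CR, a log2 fold change of 1.74 ± 0.35 (adjusted p = 0.00148), and Zfp36 rose by 1.49 ± 0.33. In 0 of the 31 did the mouse means separate. The count called higher was 2 without AL2, 3 without AL4 or CR3, 4 without CR2 and 15 without AL1, and Btg2 and Dusp1 were called whichever mouse was left out. Fos, which did not pass (1.03 ± 0.34), had mouse means of 1497, 479, 2178 and 358 CPM in AL1 to AL4 and 535, 1660.0 and 2001 in CR1 to CR3, with high and low mice in each diet. Zfp36 was also the 1 gene called of 10 hub genes of cumulus aging that the study names, a list the study chose from cumulus libraries of this set and so no independent evidence.

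Nutrient sensing and energy genes gave few calls. Of 28 insulin, IGF, PI3K and FOXO genes 1 was called higher, Akt1 (0.34 ± 0.08), and of 28 mTOR and AMPK genes 0 were called by edgeR or DESeq2. Glycolysis had 0 calls of 26 with edgeR and 2 lower with DESeq2, with a median of -0.17, the circadian clock 0 of 22 with edgeR and 1 lower with DESeq2, and the sirtuins with Nampt 0 of 8 with either. Of 86 cytoplasmic ribosomal protein genes Rpl29 and Rplp1 were higher, of 78 mitochondrial ones Mrpl34 was higher, of 85 nuclear respiratory chain genes Atp5g1 was higher and Atp5j lower, and of 13 mitochondrially encoded genes 0 were called by edgeR and 2 lower by DESeq2. The medians of these 4 lists were 0.05, 0.09, -0.03 and -0.15, and a count of calls at or below the background of all genes is no result about a list.

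Remaining lists held scattered calls, to be set against 2.06% of all genes called higher and 1.53% called lower. Of 30 matrix and protease genes Serpine2 (0.60 ± 0.12), Itgb1 and Lamc1 were higher and Mmp11 lower, of 18 apoptosis genes Bak1 and Casp8 were higher, and of 18 interferon and inflammation genes Socs3 and Irf1 were higher and Ifi27 lower (-1 ± 0.17). Of 18 Hippo and CCN genes Ccn1 was higher, and of 15 WNT and NOTCH genes Heyl was higher (0.63 ± 0.12) and Sfrp4 lower. The short noncoding RNA Rmrp and the snoRNA host Snhg3 were higher among 13 abundant noncoding RNAs, where the 3 lower ones were Meg3, Rian and Mirg.

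**Figure D5:**
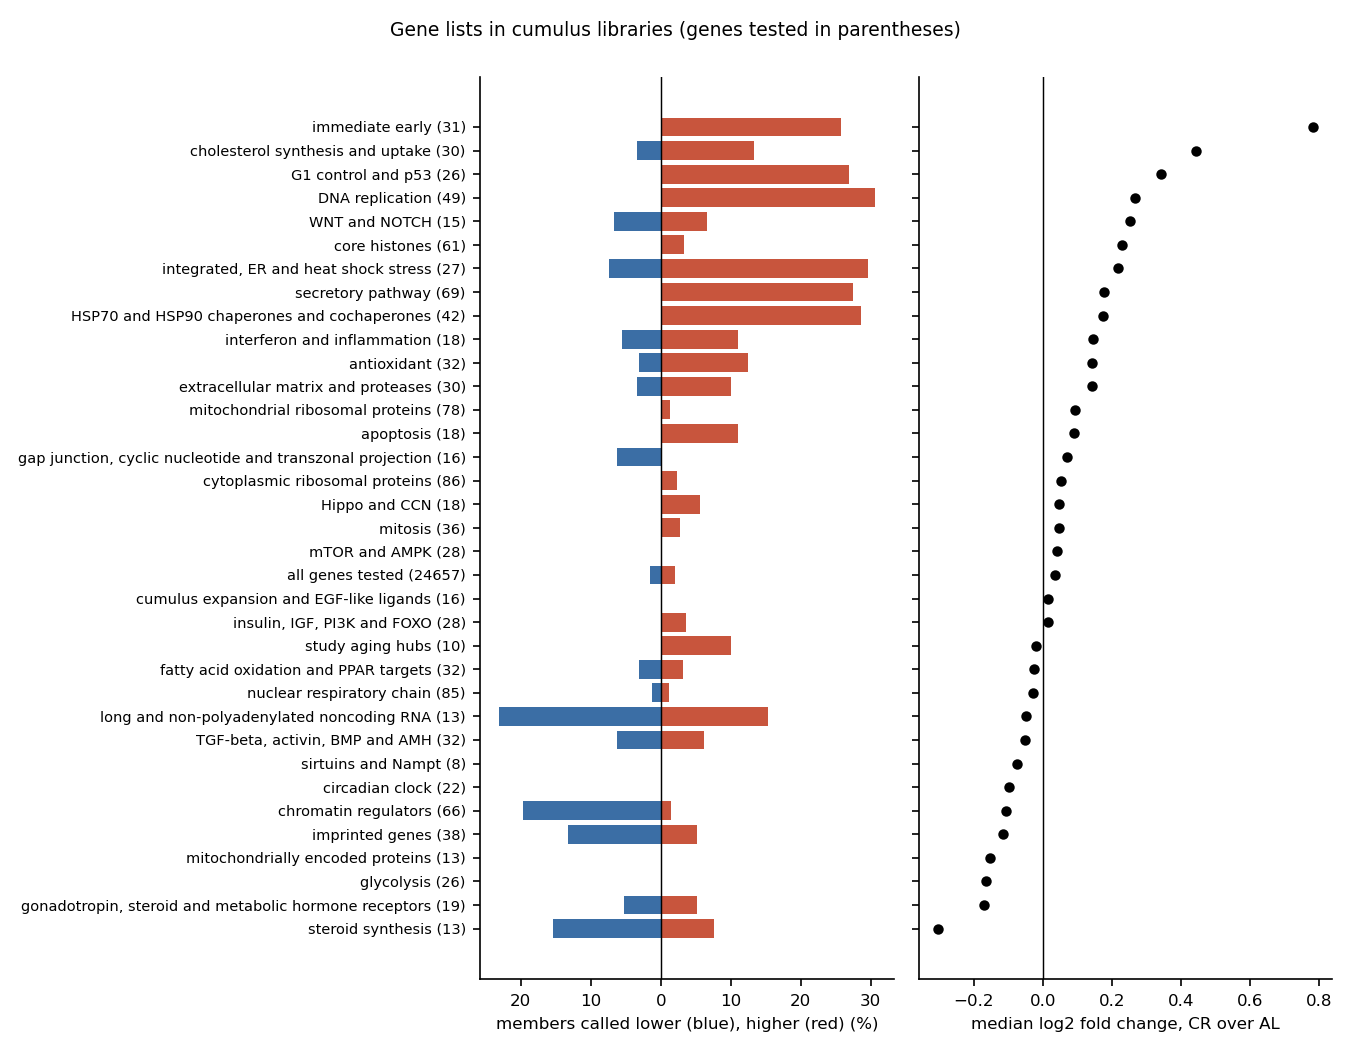
Share of the tested members of each list called lower (blue) or higher (red) in CR at FDR 5% (left, %), and the median log2 fold change of the list (right), with the number of tested genes in parentheses. DNA replication, stress, chaperones, secretory pathway and G1 control have 26.9% to 30.6% of members called higher, against 2.06% of all genes, and chromatin regulators have 19.7% called lower. The stress list shares Hspa8, Hsph1, Hspa1a, Hspa1b and Hsp90aa1 with the chaperone list and Calr with the secretory list.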

How the data were processed

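Total RNA of cumulus pools was sequenced by RamDA-seq. The authors ran Fastq-mcf for trimming, HISAT2 2.0.5 for alignment to the GRCm38 build and featureCounts 1.5.1 for assignment to GENCODE vM15 genes, sharing multi-mapped reads between genes, and deposited expected counts for 41092 genes (36.9% of nonzero values not whole) and RPKM values. RPKM of AL libraries matched their counts within 0.1% in 100% of values, but only 0.8% of those of CR libraries did, which imply 62.4% to 62.5% of the count totals. The expected counts were rounded, although the design had taken them for plain counts. Symbols and coordinates came from GENCODE vM21 (40901 identifiers matched).

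A gene was tested when 5 or more of the 40 libraries had a count for it. The quasi-likelihood test of edgeR 4.0.16 under R 4.3.3, with TMM factors and FDR 5%, was run on simulated counts of independent libraries. These counts held no effect of mouse, so that run cannot show the error rate for libraries that share mice. Log2 fold changes are given with 1 SE. DESeq2 1.42.0, limma 3.58.1, sums per mouse, leaving out each mouse, thinning, filters, the oocyte marker sum as covariate, a fit of all cumulus groups and the left-out library were alternatives. Principal components used log10(RPKM + 1) and permutation tests used 100000 resamples. Genes named are the 12 largest rises and falls among called genes with a mean of at least 8 CPM and non-overlapping mouse means, up to 4 members of lowest p per list, and fixed genes (Foxl2, Amh, Fshr, Zp3, Gdf9, Nell1, Scara5, Lrrtm3). Other named genes were chosen after their values were seen. Some genes are not reported here. Members and lists were chosen with earlier results of these data known, and lists were not tested as sets. Pseudogenes were matched to transcripts with blastn 2.17.0+.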

Additional observations from a re-analysis of the deposited data

Results flagged for a closer look

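Among the 4 AL mice, 1 mouse mean stood far from the other 3 at 11 of 79 named genes examined. Chance flags about 1 in 20 when means are equally precise and genes independent. AL3 has 1 library and the genes share mice, so an excess over that rate is not shown. The cause was not tested.

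AL4 was low for Lrrtm3 (42.3 CPM against 58.5 to 59.7 in the other AL mice), high for Gpx3 (65.7 against 22.9 to 26.9), low for Npr2 (466 against 602 to 630.2) and high for Lhcgr (94.9 against 0.464 to 16.5). For Lrrtm3 and Gpx3 all CR mouse means lay below all AL mouse means, which the rule for named genes asks for.

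AL3, which has 1 library, was high for Ptprt (113 CPM against 28.5 to 42.7), Id1 (52.1 against 12.9 to 15.3) and Dusp1 (76.8 against 18.8 to 28), and low for Cd36 (60.4 against 79.5 to 81.9) and Serpine2 (707 against 812 to 826). For Id1 and Dusp1 its level lay among those of the CR mice.

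AL1 was low for Ccne1 (4.82 CPM against 8.65 to 9.43), which lost its call without this mouse, and high for Myocd (115 against 92.4 to 95.5).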

How the results depend on the processing

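No paired analysis was possible because CR and AL libraries share no mouse and no complex. Counts summed per mouse gave 0 calls with edgeR and 198 with DESeq2 (96 higher and 102 lower, added after seeing the data). Voom with mouse as a random effect gave 1892 calls (1525 lower), and a fit of all cumulus groups gave 1453 (798 higher and 655 lower). Leaving out each mouse gave 304 to 1267 calls, 165 to 714 higher and 139 to 553 lower. The lowest values were those without AL2, and 242 were lower without AL1 and 224 without CR2. DESeq2, RLE factors, 2 filters, the likelihood ratio test, truncation, the left-out complex, thinning, the oocyte covariate and, added after seeing the data, length and GC trends and CR counts rebuilt from RPKM gave 836 to 1026 calls. The causes were not tested.

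On PC1 the share of score variance between diets was 7.66% with TMM log2 CPM (permutation test, p = 0.0809) and 4.42% to 23.8% with a mouse left out. On PC2 it was 31.3% with a pseudocount of 0.1 (p = 0.00018), 40.4% with TMM log2 CPM (p = 2e-05) and 7.12% to 58.3% with a mouse left out. These p-values are from permutation over libraries. The exact permutation test over mouse means gave p = 0.171 on PC1 with TMM log2 CPM. On PC2 it gave p = 0.457 with the pseudocount of 0.1 and p = 0.171 with TMM log2 CPM. The oocyte marker difference ran from -0.354 CPM without CR3 to 23.4 without CR2. The log2 fold change of Lhcgr ran from -2.69 without AL2 to 1.02 without AL4, where it turned. Over the alternatives of the 87 named genes that were called, 1556 of 1896 values kept direction and call, 339 lost the call and 1 turned. Depth limits genes under about 3 counts, 2.27 to 3.44 CPM in an AL library.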

Other observations

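A second set of samples held 16 cumulus libraries of 4 AL mice at 9 months, normalized apart from the first set, so the levels below are set side by side without a test. Hspa8 had 587 to 1441 CPM (median 958) there and Hsph1 98.1 to 293 CPM (median 187), medians close to those of the first AL set, whereas the upper ends reached into the CR range. Scara5 had 2.07 to 229.5 CPM (median 8.62), with its highest library inside the CR range. Lrrtm3 had 2.23 to 112 CPM (median 28.3), between the medians of AL and CR in the first set. Rian had 130.1 to 1450.0 CPM (median 784).

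Levels in cumulus libraries of young mice (15 libraries) and old mice (16 libraries) of the first set, both fed ad libitum, are given as mean ± SD. Hspa8 was 1233 ± 219 CPM in young and 1014 ± 167 in old mice. Mcm4 was 150.2 ± 14.7 and 149 ± 22.1, Scara5 13.5 ± 5.79 and 12.3 ± 12.2, and Rian 546 ± 264 and 726 ± 353. In CR the lowest mouse mean was 1606 CPM for Hspa8, 187 for Mcm4 and 74.0 for Scara5, and the highest was 313 for Rian, each beyond the young and the old mean. Young and old levels are means over libraries of few mice, scaled together with all cumulus groups of the first set. CR levels were scaled within the 40 libraries alone, so these values are set side by side without a test.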
